A study of Mus musculus with 15 samples.

Results

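The 39 genes described here are interferon-stimulated genes and genes of peptide presentation on major histocompatibility complex (MHC) class I, listed by mouse symbol and found by Entrez Gene number among the 26301 genes counted. All 39 were matched. 3T3-L1 cells are mouse preadipocytes, and a cocktail of insulin, dexamethasone and IBMX makes them differentiate into fat cells. RNA-seq counts came from day 2 of differentiation, in 5 groups of 3 replicates each, 15 libraries in all. Every culture had received insulin at 1.67 uM, dexamethasone at 1 uM and IBMX at 115 ug/mL. Control (sh-Empty) cells carried a retroviral vector without a hairpin, and JMJD1A-KD (sh-Jmjd1a) cells carried a hairpin against Jmjd1a, the gene now called Kdm3a, which encodes a histone H3K9 demethylase. The remaining 3 groups all kept the sh-Jmjd1a hairpin and were infected with a further retrovirus that expressed either LacZ as a control or JMJD1A, in its wild-type form, JMJD1A(WT), or as JMJD1A(H1122A), in which iron coordination is defective. The JMJD1A constructs carried changes that the hairpin does not recognise. The lines were made stable by antibiotic selection, whether as pools or clones is not given in the sources used here, and nothing states that replicates came from separate infections, so p-values measure the spread between these libraries, which may be technical. The question asked of each gene was whether it differed on knockdown and whether expression of JMJD1A(WT), but not of the mutant, turned that difference back.

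Interferons are secreted when a cell senses viral nucleic acid. They act through Janus kinases and STAT proteins, and type I interferon assembles a complex with STAT2 and IRF9 that binds the interferon-stimulated response element (ISRE) in the promoters of many antiviral genes. Interferon gamma acts through gamma-activated sites (GAS) and through IRF1, and it raises the genes that load peptides onto MHC class I. Cells can also hold part of this programme at a low level without added interferon.

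The promoters of the members were searched because the data bear on genes that moved together. In RefSeq windows of GRCm38.p6 from 250 bases before to 50 after each gene start, the ISRE core was searched as GAAA, any 2 bases, GAAA and the GAS as TTCNNNGAA, on both strands. The GAS letters read the same on both strands, and matches of the motifs shared bases in 2 members, Bst2 and Ifitm3. Of the 39 members, 30 had a window, and 15 of these (50%) held an ISRE core, against 708 of 17816 genes with a window (3.97%). A GAS was held by 9 of the 30 (30%) against 8.96% of all genes with a window. The members were listed as interferon-stimulated genes, so an excess of these motifs goes with the choice of list and is no result of these data. Among the members that rose on knockdown, 12 of 22 with a window (54.5%) held the ISRE core, near the 50% of all members with a window. Of 4 members tested and not called there, 1 held it, and of 4 not tested, 2 did. These numbers are too small to set apart the members that rose. Among all genes that rose on knockdown 5.28% held it. A match is a description of letters and not a site of binding. The 6 promoters below were picked, among members with values in every library, because they hold an ISRE core before the gene start. They were taken by smallest adjusted p on knockdown and are not typical of the members. Shown here are stretches of 120 bases from 6 promoters whose genes carry results below, written 5' to 3' along the gene, with every match to the ISRE core in capitals (on the opposite strand it reads TTTC, any 2 bases, TTTC):
B2m, chr2:122147468-122147587, plus strand: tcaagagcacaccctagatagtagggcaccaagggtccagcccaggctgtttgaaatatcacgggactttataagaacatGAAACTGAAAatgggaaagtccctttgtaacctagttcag
Stat2, chr10:128270248-128270367, plus strand: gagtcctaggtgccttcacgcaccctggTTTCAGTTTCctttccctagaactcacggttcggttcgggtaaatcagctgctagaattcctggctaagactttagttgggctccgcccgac
Oas1a, chr5:120907526-120907645, minus strand: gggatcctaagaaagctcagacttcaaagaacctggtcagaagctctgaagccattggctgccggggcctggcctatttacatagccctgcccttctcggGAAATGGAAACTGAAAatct
Gbp3, chr3:142559924-142560043, plus strand: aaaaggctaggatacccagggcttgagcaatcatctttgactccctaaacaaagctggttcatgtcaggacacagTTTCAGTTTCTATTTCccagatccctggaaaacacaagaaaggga
Gbp7, chr3:142530203-142530322, plus strand: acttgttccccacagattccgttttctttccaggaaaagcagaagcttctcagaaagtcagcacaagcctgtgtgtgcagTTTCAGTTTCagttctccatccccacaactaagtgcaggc
Ifit1, chr19:34640724-34640843, plus strand: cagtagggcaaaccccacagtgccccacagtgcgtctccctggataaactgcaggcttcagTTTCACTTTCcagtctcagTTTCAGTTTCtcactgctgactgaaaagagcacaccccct

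Oas1a and Gbp3 each showed 2 ISRE cores that share 4 bases, and Ifit1 showed 2 separate cores. On the genome of the counts (mm9, NCBIM37, gene models of GENCODE M1), 38 members were placed, on 14 chromosomes, and 19 of them lay within 200 kb of another member, in 8 clusters. Tap1 and Psmb8 lay at chr17:34324498-34338399, Oas2 and Oas1a at chr5:121180342-121357536, Ifit2, Ifit3 and Ifit1 at chr19:34625184-34724499, and Gbp7, Gbp3 and Gbp2 at chr3:142193302-142300972. Psmb9 was not placed because 2 gene models carry its name. The values count reads over exons. Exons of Parp9 and Dtx3l overlap by 458 bases on opposite strands, exons of Tap1 overlap Psmb9 on the opposite strand by up to 212 bases, those of Irf7 overlap Phrf1 by 45 bases on the opposite strand, and those of Irf9 overlap Rnf31 by 123 bases on the same strand. Whether the counting used the strand is not given in the sources used here, so reads in these stretches cannot be told apart. Close relatives such as Oas1a and Oas1g, Ifit3 and Ifit3b, and the Gbp genes can share reads as well, which makes their values less certain.

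Library totals ranged from 11437058 to 25523148 counts (median 12916162), and the highest was that of JMJD1A(WT) replicate 3. Levels are given as normalized CPM, the count per 1000000 counts of the library after TMM scaling. The sh-Empty and sh-Jmjd1a libraries (knockdown set) and the 9 libraries of the rescue groups (rescue set) were normalized and fitted apart, so levels are compared within a set. Called means an adjusted p under 0.05 in the quasi-likelihood test of edgeR, with p-values adjusted over all genes of that fit by the Benjamini-Hochberg method. Replicates differed by more than sampling noise, and each library was counted as a replicate. Kdm3a was at 171, 174 and 185 CPM in sh-Empty cells and at 129, 128 and 138 CPM in sh-Jmjd1a cells, a fold of 0.746 (log2 fold change -0.42, SE 0.0484, adjusted p = 2.91e-08). With LacZ it was at 122, 116 and 118 CPM, with JMJD1A(WT) at 1768, 1639 and 1662 CPM, and with JMJD1A(H1122A) at 2288, 2199 and 2103 CPM. The knockdown thus left most of the Kdm3a counts, and the mutant line held 1.3 times the Kdm3a counts of the JMJD1A(WT) line (adjusted p = 3.94e-12).

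The tissue label was checked against markers. Leukocyte markers summed to between 1.91 and 5.20 CPM in every library, with Ptprc at 1 count and Cd3e at 0 over all 15 libraries, and endothelial markers summed to at most 1.54 CPM. Adipocyte markers (9 genes, among them Pparg, Fabp4 and Lpl) summed to between 5218 and 5305 CPM in sh-Empty cells and between 2649 and 2790 CPM in sh-Jmjd1a cells, and 9 of 9 were lower on knockdown. In the rescue set they summed to between 3329 and 3409 CPM with LacZ, 3817 and 4166 CPM with JMJD1A(WT) and 2578 and 2683 CPM with JMJD1A(H1122A). Fibroblast and preadipocyte markers (9 genes) summed to between 21301 and 21671 CPM in sh-Empty cells and 32608 and 33581 CPM in sh-Jmjd1a cells, and 7 of 9 were higher on knockdown, while the preadipocyte marker Dlk1 was lower (log2 fold change -0.76, adjusted p = 6.27e-15) and Pdgfra was not called. In the rescue set the fibroblast sums overlapped, at 37478 to 38849 CPM with LacZ, 37909 to 39830 CPM with JMJD1A(WT) and 38381 to 39835 CPM with JMJD1A(H1122A). Both sums differed between the knockdown groups. With JMJD1A(WT) over LacZ, 9 of 9 adipocyte markers rose, and of the 9 fibroblast and preadipocyte markers 3 rose and 1 fell. With JMJD1A(H1122A) against JMJD1A(WT), 9 of 9 adipocyte markers fell, and of the other 9 markers 4 rose and 2 fell, changes that the overlapping sums do not show. The part of these cells in the results was not tested. In such bulk libraries, fewer cells of a type and less RNA per cell cannot be told apart.

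On knockdown, the members tested were higher in JMJD1A-KD cells than in control cells as a rule. Of the 33 members with enough counts to test, 27 rose and 0 fell, while 22.3% of all 12272 genes tested rose and 23.9% fell (46.2% in either direction). The members were chosen with earlier results of these data known, so their shares describe the list and are no test of it against all genes. At an unadjusted p under 0.05 there was 1 lower member, Irf1, and DESeq2 also called 0 members lower. The median log2 fold change of the tested members was 0.69 (from -0.21 to 4.19), and that of all genes tested was -0.0032. The change was at least 2-fold (log2 fold change of 1 or more) in 12 members, against 3.07% of all genes, and 7 of the 12 had at least 10 counts in each library of the knockdown set. In 26 of the 27 members that rose, the lowest sh-Jmjd1a library lay above the highest sh-Empty library, while 25.6% of all genes showed such a separation upward. The exception was Trim25. Members with hardly any counts in sh-Empty cells could pass the filter on low counts only through the sh-Jmjd1a libraries, and of the 28 members with at least 10 counts in each of the 6 libraries, 22 rose and 0 fell. The 5 members tested outside these 28 (Oas1a, Oas2, Ifit1, Mx2 and Gbp3) all rose.

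**Figure D1:**
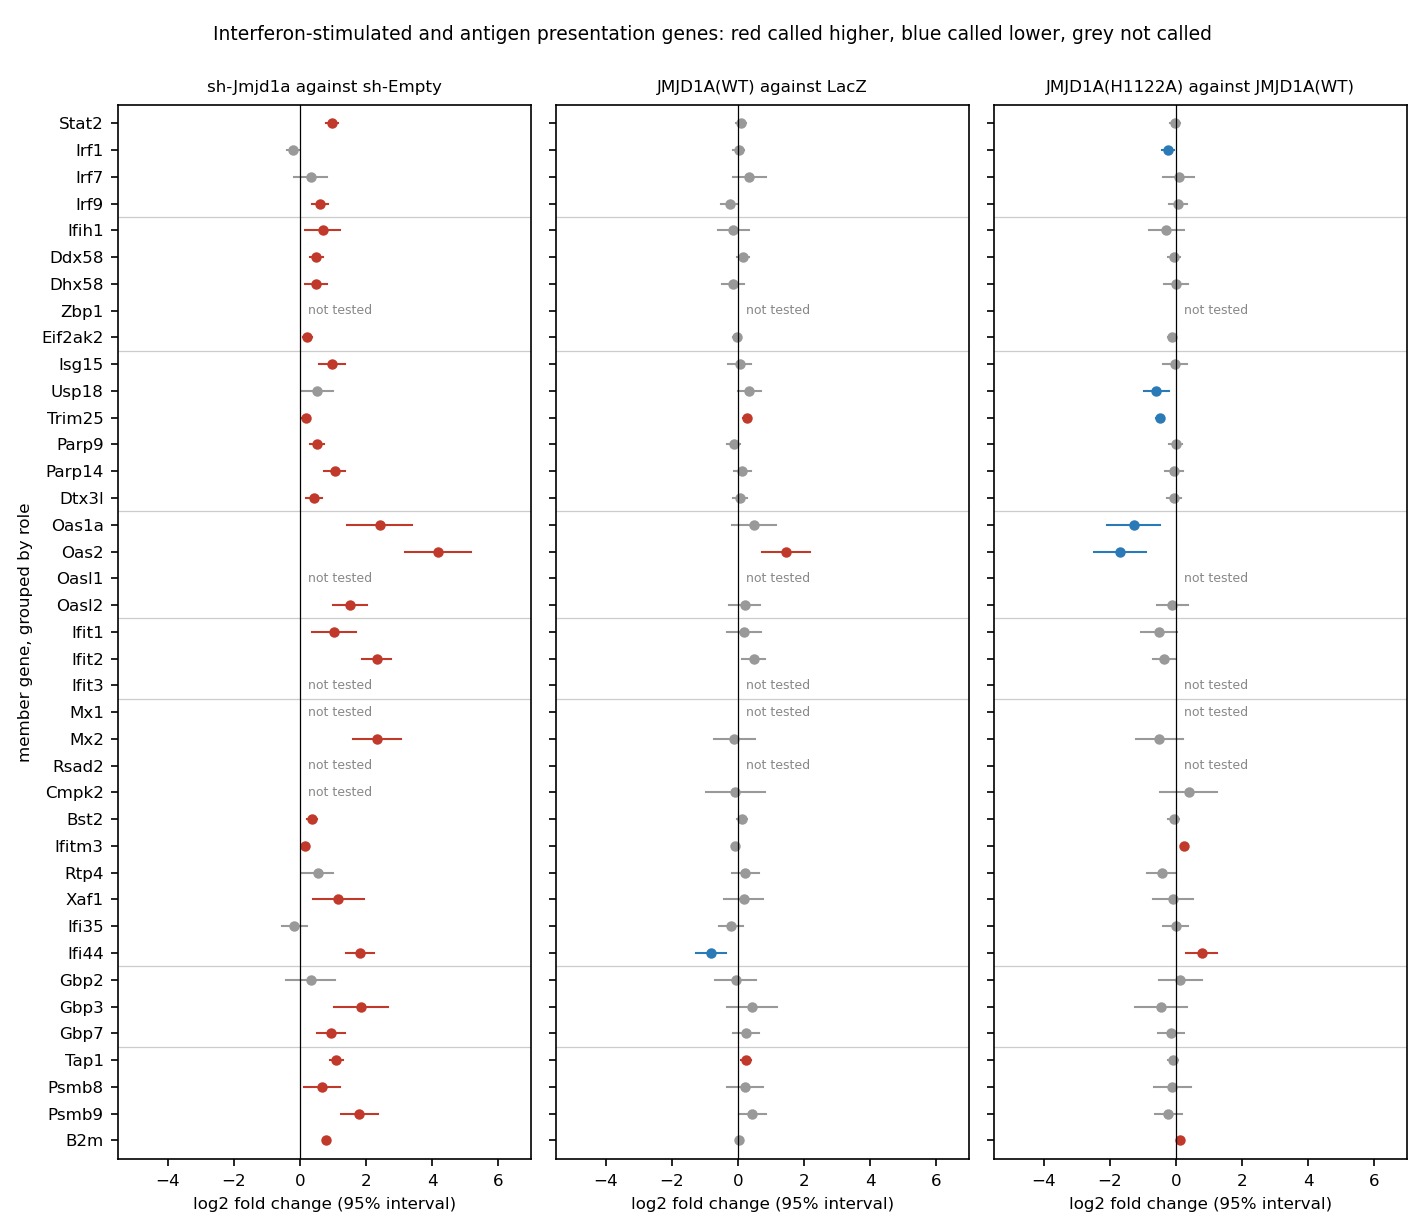
Log2 fold change of each member, grouped by role, with its 95% interval, in sh-Jmjd1a against sh-Empty cells (left), JMJD1A(WT) against LacZ (middle) and JMJD1A(H1122A) against JMJD1A(WT) (right). Points to the right of 0 dominate on the left, where 27 members were called higher, and most points in the middle and right panels are grey, with 4 and 8 members called.

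Levels between genes were compared per kilobase of exon. On that scale B2m led in both groups of the knockdown set, with 622 CPM per kb in sh-Empty cells and 1073 CPM per kb in sh-Jmjd1a cells, followed by Ifitm3 (298 and 336 CPM per kb) and Bst2 (49.98 and 64.7 CPM per kb). Most other members were far lower. Among the OAS, IFIT, Mx and Gbp genes, Ifit2 was the highest in sh-Jmjd1a cells with 2.17 CPM per kb, so the highest folds belonged to genes expressed at low levels.

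Among the transcription factors, Stat2 and Irf9, which form the core of the ISRE-binding complex, rose, and Irf1 and Irf7 were not called. Stat2 (chr10:127707629-127729905) was at 20.2, 24.2 and 26.7 CPM in sh-Empty cells and at 48.4, 43.1 and 50.2 CPM in sh-Jmjd1a cells. Each sh-Jmjd1a library lay well above each control library, a 1.97-fold rise (log2 fold change 0.98, SE 0.0904, adjusted p = 5.35e-10). Irf9 was at 11.7, 11.3 and 11.5 CPM in control cells and at 16.7, 16.1 and 20.05 CPM on knockdown (1.53-fold, adjusted p = 9.98e-05). Irf1, a factor strongly induced by interferon gamma, was at 31.3, 36.9 and 31.0 CPM in control cells and 31.1, 28.6 and 26.0 CPM on knockdown. These groups overlapped, and the log2 fold change was -0.21 (95% interval -0.39 to -0.03, adjusted p = 0.0575). Irf7, which drives interferon alpha genes once it is induced, stayed near 3 CPM (means 2.95 and 3.63 CPM, log2 fold change 0.32, 95% interval -0.16 to 0.81, adjusted p = 0.283).

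All 4 sensors of viral nucleic acid that could be tested rose by small amounts. Ddx58, which encodes the RNA sensor RIG-I, went from 23.3, 23.7 and 20.3 CPM to 31.2, 28.1 and 34.97 CPM (1.41-fold, adjusted p = 8.96e-05). Eif2ak2, the gene of the kinase PKR that halts translation on double-stranded RNA, went from 68.5, 73.6 and 61.8 CPM to 76.9, 78.4 and 82.1 CPM, which is 1.17-fold (adjusted p = 0.00442). Its groups were separated by a narrow gap, and its call was lost without sh-Empty replicate 3 (adjusted p = 0.0792). Dhx58, the gene of the RIG-I relative LGP2, was at 6.70, 5.60 and 5.05 CPM and at 7.501, 8.31 and 8.16 CPM (1.4-fold, adjusted p = 0.0185). Ifih1, the gene of MDA5, was 1.61-fold higher (adjusted p = 0.0305). The calls of Ifih1 and Dhx58 were lost under DESeq2 (adjusted p = 0.106 and 0.0755). Ifih1 also lost its call without replicate 2 or replicate 3 of either group (adjusted p up to 0.0998), and Dhx58 when either sh-Empty replicate 3 or replicate 2 of sh-Jmjd1a was left out (adjusted p up to 0.122). Zbp1, a sensor of Z-form nucleic acid, had 1 count in the sh-Empty and 8 counts in the sh-Jmjd1a libraries together and was not tested (ratio 8.36, 95% counting interval 1.12 to 371).

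In the ISG15 pathway and among the genes of ADP-ribosylation, 5 of 6 rose. Isg15, a ubiquitin-like modifier, was at a mean of 3.80 CPM in control cells and 7.30 CPM on knockdown (1.94-fold, adjusted p = 0.000145). Parp14 (2.07-fold, adjusted p = 1.56e-06), Parp9 (1.43-fold, adjusted p = 0.000133) and Dtx3l (1.35-fold, adjusted p = 0.00454) encode an ADP-ribosyltransferase family pair and the ubiquitin ligase that partners PARP9, and lie together at chr16:35832960-35972691. Trim25 (chr11:88860690-88881607), whose product is the ubiquitin ligase that assists RIG-I, was at 99.4, 103 and 96.5 CPM and at 113, 102 and 125 CPM. Its groups overlapped and the rise was 1.14-fold (adjusted p = 0.0108). Its call was lost when either sh-Empty replicate 3 or replicate 3 of sh-Jmjd1a was left out (adjusted p up to 0.0697), and that of Dtx3l without sh-Empty replicate 3 (adjusted p = 0.0611). Usp18, which removes ISG15 and dampens interferon receptor signalling, was at means of 3.53 and 5.10 CPM and missed the threshold (log2 fold change 0.53, 95% interval 0.05 to 1.01, adjusted p = 0.0645).

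The OAS family is named after the enzymes that make the 2'-5' oligoadenylates that switch on RNase L, and 3 of its 4 members were tested and rose. Oas2 and Oas1a had the highest fitted folds of the members tested, but both had fewer than 10 counts in every sh-Empty library and passed the filter only through the sh-Jmjd1a libraries. Oas2 had 1, 2 and 3 counts in the sh-Empty libraries and 35, 29 and 47 counts in the sh-Jmjd1a libraries, or 0.0881, 0.172 and 0.194 CPM against 3.05, 2.34 and 3.65 CPM. The fitted log2 fold change of 4.19 (SE 0.489, adjusted p = 3.16e-08) rests on very few control counts, and the ratio of the summed counts was 19.3 with a 95% counting interval of 8.61 to 53.8. Oas1a was at 0.264, 0.603 and 0.194 CPM in control cells and at 2.18, 2.02 and 1.40 CPM on knockdown (5.34-fold, adjusted p = 0.000142), with no overlap. Oasl2, an OAS-like gene, rose 2.85-fold from a mean of 2.08 to 5.71 CPM (adjusted p = 1.36e-05). Oasl1 went the other way in its few reads, with 4 counts in sh-Empty and 0 counts in sh-Jmjd1a libraries, and was not tested (ratio 0, upper limit of the 95% counting interval 1.58).

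IFIT proteins bind foreign RNA ends and block their translation. Ifit2 was at 1.94, 1.81 and 1.42 CPM in control cells and at 9.33, 7.90 and 8.31 CPM on knockdown, a 4.99-fold rise (log2 fold change 2.32, SE 0.219, adjusted p = 7.23e-10) that was far larger than the spread between replicates. Its neighbour Ifit1 was at 0.705, 2.07 and 2.40 CPM and at 2.44, 3.55 and 4.97 CPM (2.06-fold, adjusted p = 0.00995). The groups only just stood apart, and the call was lost when either sh-Empty replicate 1 or replicate 3 of sh-Jmjd1a was left out (adjusted p up to 0.0707). Ifit3, between them on the chromosome, had 9 counts in the sh-Empty and 14 in the sh-Jmjd1a libraries (ratio 1.63, 95% counting interval 0.656 to 4.26) and was not tested.

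Among the other antiviral effectors, 5 of the 7 tested rose. Mx2, a dynamin-like GTPase, was 5.05-fold higher (adjusted p = 3.66e-06), from a mean of 0.713 to 3.59 CPM. With 3, 15 and 9 counts in the sh-Empty libraries, Mx2 passed the filter on low counts only through the sh-Jmjd1a libraries. Its neighbour Mx1 stood at 10 against 37 counts, under the filter (ratio 3.87, 95% counting interval 1.89 to 8.72). Ifi44 (chr3:151393886-151412911), an interferon-induced gene of little-known function, was at 2.64, 3.28 and 2.59 CPM in control cells and at 7.94, 9.03 and 12.5 CPM on knockdown. Every knockdown library was well above every control library (3.51-fold, adjusted p = 3.52e-08). Xaf1 (2.25-fold, adjusted p = 0.0109), Bst2, which encodes tetherin (1.29-fold, adjusted p = 0.000116), and Ifitm3, whose product blocks entry of enveloped viruses (1.12-fold, adjusted p = 0.00295), also rose. Ifitm3 (chr7:148195485-148196669) was at 206, 196 and 205 CPM and at 229, 238 and 215 CPM, a small but separated difference. The call of Xaf1 was lost when either sh-Empty replicate 3 or replicate 3 of sh-Jmjd1a was left out (adjusted p up to 0.127). Rtp4 (log2 fold change 0.54, 95% interval 0.07 to 1.01, adjusted p = 0.0529) and Ifi35 (-0.17, 95% interval -0.53 to 0.20, adjusted p = 0.476) were not called, while Rsad2 with 1 against 5 counts and Cmpk2 with means of 0.433 and 0.855 CPM were not tested.

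Guanylate-binding proteins attack the membranes around intracellular microbes and answer above all to interferon gamma. Gbp3 was at 0.264, 1.12 and 0.518 CPM in control cells and at 2.27, 2.42 and 2.18 CPM on knockdown (3.62-fold, adjusted p = 0.00037). It had 3, 13 and 8 counts in the sh-Empty libraries and passed the filter on low counts only through the sh-Jmjd1a libraries. Gbp7 was at 4.49, 4.40 and 2.78 CPM and at 7.24, 5.89 and 8.55 CPM (1.91-fold, adjusted p = 0.000487). Neither pair of groups overlapped. Gbp2, in the same cluster, was at 1.06, 1.03 and 1.68 CPM and at 1.22, 1.94 and 1.71 CPM, which overlapped (log2 fold change 0.33, 95% interval -0.41 to 1.06, adjusted p = 0.489).

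All 4 antigen presentation members rose. B2m (chr2:121973422-121978819), the invariant light chain of MHC class I, was at 538, 533 and 534 CPM in control cells and at 943, 969 and 857 CPM in JMJD1A-KD cells. The control libraries were nearly equal and each knockdown library lay far above them, a 1.72-fold rise with the smallest adjusted p of any member (log2 fold change 0.79, SE 0.0414, adjusted p = 2.73e-15). Tap1, a subunit of the transporter that brings peptides into the endoplasmic reticulum, was at 18.6, 15.8 and 19.6 CPM and at 38.4, 41.9 and 36.8 CPM (2.15-fold, adjusted p = 6.3e-11). Psmb9, an immunoproteasome subunit gene beside it, went from a mean of 1.32 to 4.73 CPM (3.48-fold, adjusted p = 3e-06). Psmb8, the neighbouring immunoproteasome gene, was 1.6-fold higher (adjusted p = 0.0378), a call that was lost under DESeq2 (adjusted p = 0.117) and without any single sh-Empty library or without sh-Jmjd1a replicate 2 (adjusted p up to 0.235).

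**Figure D2:**
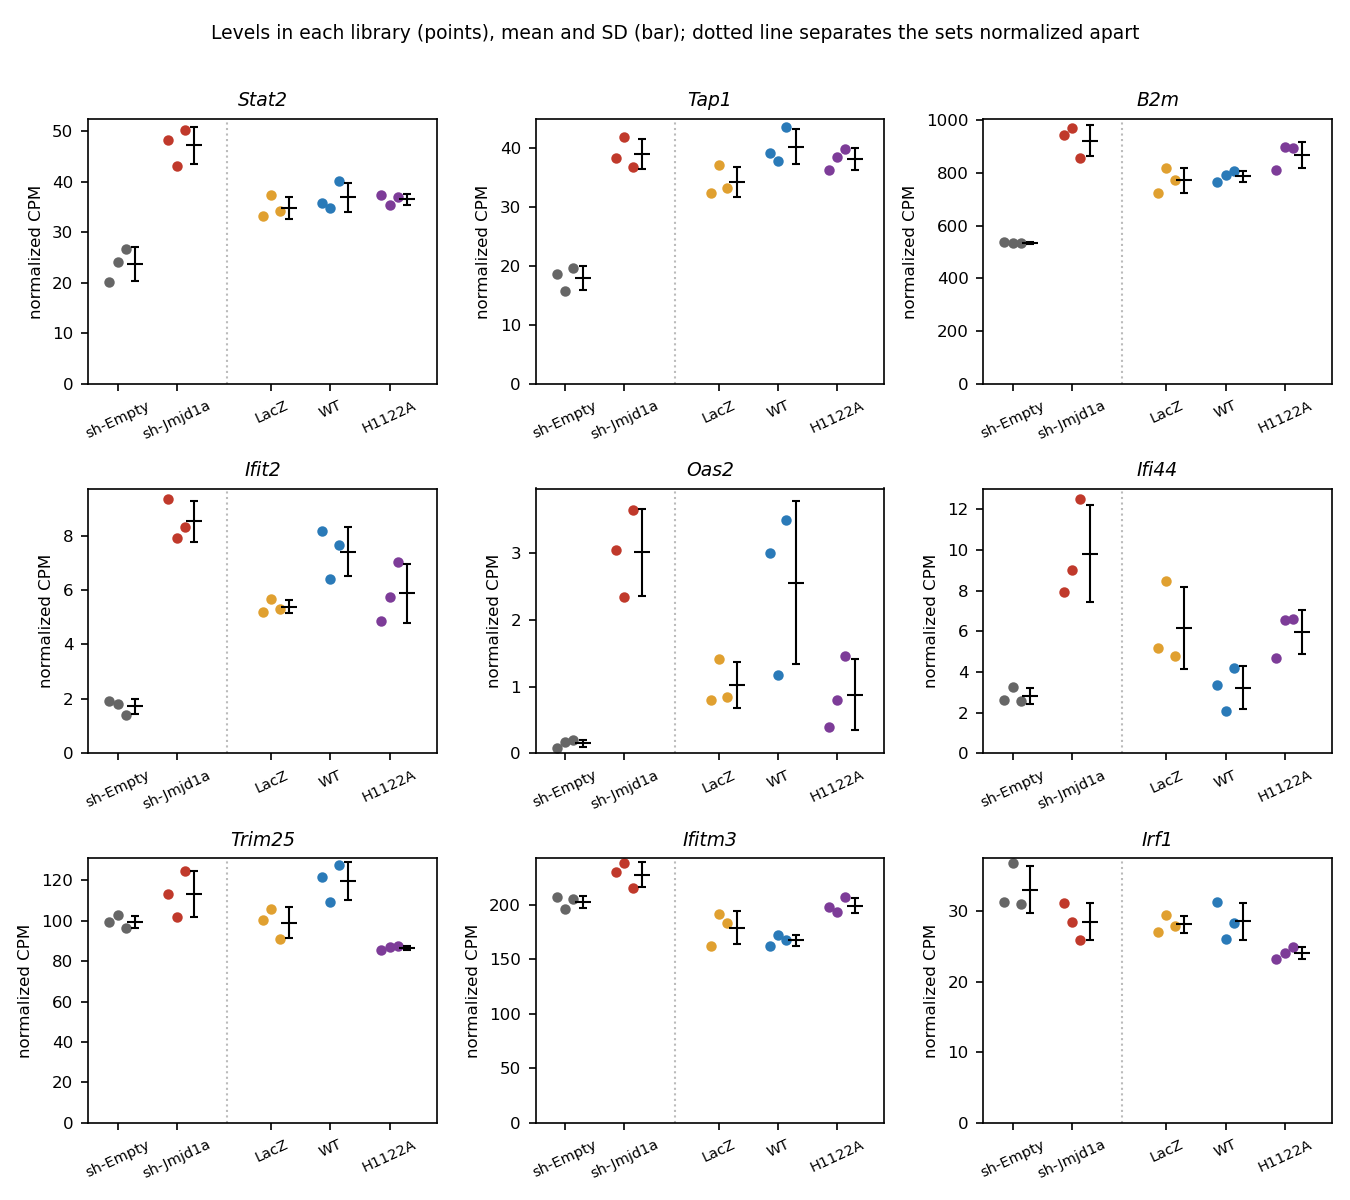
Normalized CPM of 9 members in each of the 15 libraries (points), with mean and SD of the 3 replicates (bars). The sh-Jmjd1a points lie above the sh-Empty points for Stat2, Tap1, B2m, Ifit2, Oas2, Ifi44 and Ifitm3, overlap for Trim25 and Irf1, and in the rescue set Ifi44 was lowest and Oas2 highest on average with JMJD1A(WT).

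Genes of the wider pathway, from lists written for this purpose, were read against the same background. Of the 12 interferon genes listed, 9 had 0 counts in all 15 libraries and the 12 together had 33 counts, so that no interferon gene could be tested. Of 45 other interferon-stimulated genes tested, 26 rose (57.8%) and 5 fell (11.1%), with a median log2 fold change of 0.52. Ifi27l2a (5.58-fold, adjusted p = 1.69e-12), Gbp6 (log2 fold change 1.81, adjusted p = 2.95e-07), Ifi203 (1.13, adjusted p = 6.84e-12) and Herc6 (1.04, adjusted p = 3.47e-07) showed the largest changes among those at 5 CPM or more on average. Of 17 other antigen presentation genes, 5 rose (29.4%) and 4 fell (23.5%), with a median of -0.05. These shares were near those of all genes tested, of which 22.3% rose and 23.9% fell, so the rise of the 4 antigen presentation members did not extend to this list. The ones that rose were the class I heavy chain genes H2-D1, H2-K1 and H2-M3, Nlrc5, the transactivator of class I genes, and Tap2, whose product pairs with TAP1 and which stands in both lists. H2-D1 went from 663, 697 and 658 CPM to 1111, 1133 and 1049 CPM (1.63-fold, adjusted p = 5.92e-15), and Nlrc5 from 7.49, 6.64 and 8.48 CPM to 21.1, 19.2 and 19.97 CPM (2.63-fold, adjusted p = 2.8e-10). The ones that fell were Psmb10, Psme1, Psme2 and Calr, which belong to the immunoproteasome, the proteasome activator and the loading chaperones. Psmb10 thus moved against the immunoproteasome members Psmb8 and Psmb9. Tap2 and the 4 genes that fell are named to complete the counts, after their values were seen.

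The receptors and signalling genes did not move in a common direction. Of 18 tested, 5 rose (27.8%) and 7 fell (38.9%), beside 22.3% and 23.9% of all genes tested. Ifngr1, a chain of the interferon gamma receptor, fell by 0.66 on the log2 scale (adjusted p = 1.84e-10), from 91.1, 89.1 and 93.5 CPM to 59.7, 55.5 and 58.5 CPM, and Il10rb fell by 0.37 (adjusted p = 0.00139), while Socs3, a feedback inhibitor, and the kinase gene Jak2 rose by 0.43 and 0.35 (adjusted p = 7.86e-05 and 0.000163). Among 11 genes that induce interferon, 4 rose (36.4%) and 3 fell (27.3%), beside 22.3% and 23.9% of all genes tested. The largest called changes at 5 CPM or more were those of Tmem173, which encodes STING (log2 fold change 0.62, adjusted p = 0.00333), and Tlr3 (0.45, adjusted p = 0.00312). Traf3 fell (-0.40, adjusted p = 0.005), and Mb21d1, the gene of the DNA sensor cGAS, rose (0.38, adjusted p = 0.00752).

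**Figure D3:**
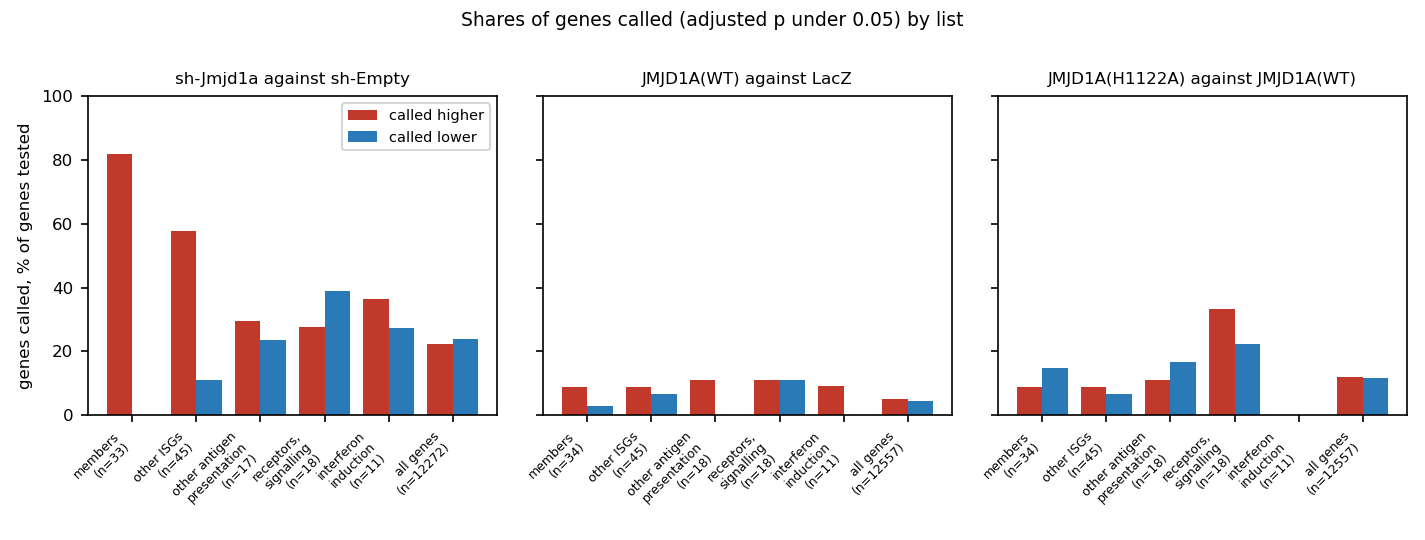
Share of tested genes called higher (red) and called lower (blue) among the members, the 4 wider lists with any tested gene, and all genes tested, in 3 comparisons (y axis in percent of genes tested, n under each bar pair). On knockdown 81.8% of the tested members and 57.8% of the other interferon-stimulated genes were called higher against 22.3% of all genes, while in both rescue comparisons no list exceeded 33.3% in either direction. Members and lists were chosen with earlier results of these data known.

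Expression of JMJD1A(WT) in JMJD1A-KD cells lowered 1 of the 34 members tested against LacZ, namely Ifi44, and raised 3, namely Trim25, Oas2 and Tap1. Over all 12557 genes tested in the rescue set, 4.52% fell and 4.98% rose, 9.5% in all. The remaining 30 members were not called, and the median log2 fold change of the members was 0.13 against 0.00 for all genes. Of the 27 members that rose on knockdown, 1 was lowered by JMJD1A(WT), 3 were raised over LacZ and 23 were not called. Among the 2738 genes of any kind that rose on knockdown and were tested in both sets, 296 (10.8%) were lowered by JMJD1A(WT), 114 (4.16%) were raised and 2328 (85%) were not called. The difference between JMJD1A(WT) and LacZ was above 0 in 19 of the 27 members and below 0 in 8, while it was above 0 in 50% of all genes tested. Without JMJD1A(WT) replicate 3, the median log2 fold change of the members was 0.032 in place of 0.13.

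Ifi44 was at 5.20, 8.50 and 4.81 CPM with LacZ and at 3.38, 2.11 and 4.20 CPM with JMJD1A(WT), so that no JMJD1A(WT) library reached the lowest LacZ library (log2 fold change -0.83, SE 0.225, adjusted p = 0.0122). With JMJD1A(H1122A) it was at 4.70, 6.56 and 6.60 CPM, above all JMJD1A(WT) libraries (log2 fold change against JMJD1A(WT) 0.78, SE 0.233, adjusted p = 0.0118) and not called against LacZ (-0.05, adjusted p = 0.935). It was the only member that was called higher on knockdown, lower with JMJD1A(WT) and higher with the mutant than with JMJD1A(WT). The gap to LacZ was not called without LacZ replicate 2 (log2 fold change -0.53, adjusted p = 0.202) or without JMJD1A(WT) replicate 2 (-0.65, adjusted p = 0.0549). The gap between the mutant and JMJD1A(WT) was not called without JMJD1A(H1122A) replicate 2 or 3 or JMJD1A(WT) replicate 2 (adjusted p up to 0.0761). The comparisons of the rescue set share libraries, so they are not separate evidence.

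**Figure D4:**
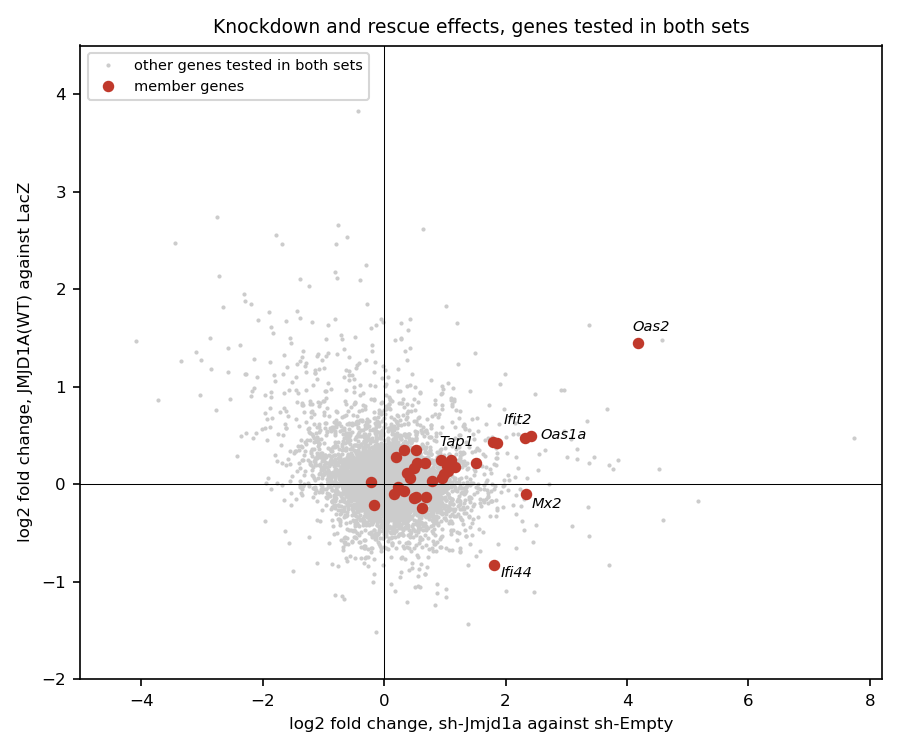
Log2 fold change of JMJD1A(WT) against LacZ (y axis) plotted against that of sh-Jmjd1a against sh-Empty (x axis) for the 12202 genes tested in both sets (grey) and the 33 members among them (red). Most members lie to the right of 0 and close to the horizontal line, with Ifi44 below it and Oas2 at the upper right.

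The 3 members raised by JMJD1A(WT) moved in the same direction as on knockdown. Oas2 was at 0.800, 1.42 and 0.849 CPM with LacZ and at 3.01, 1.17 and 3.50 CPM with JMJD1A(WT). The groups overlapped, because JMJD1A(WT) replicate 2 was below the highest LacZ library, and the 2.73-fold difference (adjusted p = 0.00497) lost its call when replicate 3 of JMJD1A(WT) was left out (log2 fold change 1.05, adjusted p = 0.166) or under DESeq2 (adjusted p = 0.0738). With JMJD1A(H1122A) it was at 0.391, 0.802 and 1.46 CPM, lower than with JMJD1A(WT) (log2 fold change -1.68, SE 0.39, adjusted p = 0.00101). Oas1a was at 1.13, 1.35 and 1.20 CPM with LacZ, 2.28, 1.41 and 1.59 CPM with JMJD1A(WT) and 0.548, 0.802 and 0.771 CPM with the mutant. It was not called between JMJD1A(WT) and LacZ (log2 fold change 0.49, 95% interval -0.17 to 1.16, adjusted p = 0.443), but it was lower with the mutant than with JMJD1A(WT) (-1.28, adjusted p = 0.0135), without overlap.

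Trim25 was at 100.4, 106 and 90.9 CPM with LacZ, 122, 109 and 128 CPM with JMJD1A(WT) and 85.3, 87.2 and 87.3 CPM with the mutant. All JMJD1A(WT) libraries were above all LacZ libraries (1.21-fold, adjusted p = 0.000272) and the mutant libraries were below both groups (log2 fold change against JMJD1A(WT) -0.47, adjusted p = 7.86e-09). Tap1 was at 32.3, 37.1 and 33.3 CPM with LacZ and at 39.2, 37.8 and 43.5 CPM with JMJD1A(WT). This 1.19-fold difference (adjusted p = 0.0253) was not called under DESeq2 (adjusted p = 0.0992) or without LacZ replicate 1, LacZ replicate 3 or JMJD1A(WT) replicate 3 (adjusted p up to 0.301). With the mutant Tap1 was at 36.3, 38.4 and 39.8 CPM and was not called against JMJD1A(WT) (adjusted p = 0.417).

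The interval of the difference between JMJD1A(WT) and LacZ depended on the member. B2m was at 723, 819.7 and 773 CPM with LacZ and at 765, 793 and 806 CPM with JMJD1A(WT), and its log2 fold change of 0.03 had a 95% interval of -0.05 to 0.11, against 0.79 on knockdown. Stat2 was at 33.3, 37.4 and 34.2 CPM with LacZ, 35.9, 34.8 and 40.2 CPM with JMJD1A(WT) and 37.5, 35.4 and 36.9 CPM with the mutant, and JMJD1A(WT) and LacZ differed by 0.10 on the log2 scale (95% interval -0.05 to 0.25). Ifit2 was at 5.20, 5.66 and 5.30 CPM with LacZ and at 8.16, 6.41 and 7.66 CPM with JMJD1A(WT), separated groups that missed the threshold (log2 fold change 0.47, 95% interval 0.14 to 0.81, adjusted p = 0.0648). Irf9 had the most negative value after Ifi44, -0.24 (95% interval -0.50 to 0.02, adjusted p = 0.298). For low members the rescue set could miss a sizeable fall. The interval of Mx2 ran from -0.73 to 0.52 and that of Gbp3 from -0.33 to 1.18.

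The mutant was compared with JMJD1A(WT) and with LacZ. Against JMJD1A(WT), 3 members were higher with JMJD1A(H1122A) (Ifitm3, Ifi44 and B2m) and 5 were lower (Irf1, Usp18, Trim25, Oas1a and Oas2), of 34 tested, while 12.1% of all genes were higher and 11.7% lower. Ifitm3 was at 162, 172 and 167 CPM with JMJD1A(WT) and at 197, 193 and 207 CPM with the mutant (1.19-fold, adjusted p = 7.8e-05), and with LacZ at 162, 191 and 183 CPM. B2m reached 809.6, 900.0 and 894 CPM with the mutant, which was 1.1-fold above JMJD1A(WT) (adjusted p = 0.0112). Usp18 was at a mean of 5.99 CPM with JMJD1A(WT) and 3.996 CPM with the mutant (log2 fold change -0.59, adjusted p = 0.0168). Irf1 was at 31.4, 26.1 and 28.4 CPM with JMJD1A(WT) and 23.3, 24.1 and 24.9 CPM with the mutant (-0.25, adjusted p = 0.0328). Against LacZ, Ifitm3 (1.11-fold, adjusted p = 0.035) and B2m (1.12-fold, adjusted p = 0.00621) were higher with the mutant and Trim25 was lower (log2 fold change -0.19, adjusted p = 0.0276), beside 4.78% of all genes higher and 4.46% lower, 9.24% in all. The mutant libraries of B2m overlapped those with LacZ, and those of Ifitm3 lay above all of them, as in 12.9% of all genes. Against JMJD1A(WT), Usp18 lost its call without JMJD1A(H1122A) replicate 2 or JMJD1A(WT) replicate 3 (adjusted p up to 0.0818), Oas1a without replicate 1 of either group (up to 0.0787), B2m without JMJD1A(H1122A) replicate 2 or 3 or JMJD1A(WT) replicate 1 (up to 0.0839) and Irf1 without JMJD1A(H1122A) replicate 1 or 2 or JMJD1A(WT) replicate 1 or 3 (up to 0.165). Against LacZ, B2m lost its call without JMJD1A(H1122A) replicate 2 or 3 (adjusted p up to 0.0606), Ifitm3 without replicate 1 or 3 of either group (up to 0.306) and Trim25 without LacZ replicate 1 or 2 or any JMJD1A(H1122A) library (up to 0.188).

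In the wider lists, 2 of 18 receptor and signalling genes rose and 2 fell with JMJD1A(WT) against LacZ, 1 of 11 induction genes rose and 2 of 18 other antigen presentation genes rose, beside 4.98% of all genes that rose and 4.52% that fell. Nlrc5 was at 15.1, 17.4 and 14.4 CPM with LacZ, 23.4, 20.6 and 24.3 CPM with JMJD1A(WT) and 14.2, 15.8 and 16.7 CPM with the mutant. It rose with JMJD1A(WT) (1.47-fold, adjusted p = 8.21e-05), the direction it also took on knockdown, and was lower with the mutant than with JMJD1A(WT) (-0.57, adjusted p = 4.39e-05). Ifi27l2a did likewise, at 1.9-fold against LacZ (adjusted p = 0.0296) and with a log2 fold change of -1.28 for the mutant against JMJD1A(WT) (adjusted p = 0.00343). Samhd1, which encodes a dNTP hydrolase that restricts retroviruses, fell with JMJD1A(WT) (by -0.27 on the log2 scale, adjusted p = 2.56e-06) and was higher with the mutant than with JMJD1A(WT) (0.37, adjusted p = 1.12e-09), but it had fallen on knockdown too (0.636 of the control level). Of the 45 other interferon-stimulated genes tested, 4 rose and 3 fell with JMJD1A(WT), and H2-D1 differed by 0.05 on the log2 scale (adjusted p = 0.615).

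Whether a member answered differently to loss of JMJD1A in the 2 sets was tested in a single fit of all 15 libraries, as the sh-Jmjd1a effect over sh-Empty minus the LacZ effect over JMJD1A(WT). The difference was called above 0 for 24 members and below 0 for 0, beside 17% and 15.7% of all 12758 genes tested. Here too the choice of members with earlier results known makes the count a description. At an unadjusted p under 0.05 there were 0 members below 0 as well, and DESeq2 called 0. Of the 24, 21 had risen on knockdown, Usp18 and Rtp4 had not been called there and Mx1 had not been tested. For B2m that excess was 0.83 on the log2 scale (SE 0.0637, adjusted p = 4.17e-12), for Tap1 1.37 (SE 0.121, adjusted p = 5.71e-13) and for Stat2 1.09 (SE 0.119, adjusted p = 2.48e-10). Ifi44 was also among them (0.99, adjusted p = 0.0261), with a change by JMJD1A(WT) smaller than its rise on knockdown, but this call was lost under DESeq2 (adjusted p = 0.0588) and without any of 6 libraries, namely sh-Empty replicate 1 or 3, sh-Jmjd1a replicate 3, LacZ replicate 1 or 3 or JMJD1A(WT) replicate 3 (adjusted p up to 0.219). The sh-Empty cells carried no hairpin, while LacZ and JMJD1A(WT) cells both carried it, so only the knockdown effect sets hairpin against no hairpin. The knockdown set also did not carry the further retrovirus, and JMJD1A(WT) was expressed far above the level of the endogenous gene. None of these can be told apart from this difference.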

How the data were processed

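RNA-seq libraries of 3T3-L1 cells at day 2 were analysed, 15 in 5 groups of 3, grouped by their titles. The authors used fastp, HISAT2 with mm9 and featureCounts, by the submitters' processing notes, and deposited raw counts per gene without normalization. The library kit is named as directional in the study's methods and as another kit of the series in the labels, and the strand setting is not given in the sources used here. Total counts per library were 11437058 to 25523148. Intervals on counts cover counting error only. Symbols came from the RefSeq table of GRCm38.p6, promoters from RefSeq GRCm38.p6 and positions from GENCODE M1 on NCBIM37, and coordinates of the builds were not mixed. Genes without a symbol held 0.5% of the counts.

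Counts were fitted with edgeR 4.0.16 (limma 3.58.1, statmod 1.5.0) in R 4.3.3, with TMM scaling, filterByExpr at a minimum count of 10, robust dispersions and the quasi-likelihood F test, Benjamini-Hochberg adjusted over all genes at 0.05. The knockdown set (6 libraries, 12272 genes), the rescue set (9 libraries, 12557 genes) and all 15 libraries (12758 genes) were each fitted once, without a block. The pipeline was tested on simulated data. The members and lists were chosen with earlier results of these data known. Values in every library are given for members called on knockdown and in a rescue comparison, and for up to 3 members of each role not so represented, by mean CPM. From each list up to 4 genes with the largest called change at 5 CPM or more are named per comparison, and other genes given with values were chosen after their values were seen. Alternatives were RLE size factors, DESeq2 1.42.0, other filters, other sets of libraries, the legacy method, a threshold of 0.01, the replicate number as a block, thinning and leaving out each library. One gene of the lists is not reported here.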

Additional observations from a re-analysis of the deposited data

Results flagged for a closer look

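For 24 members the effect in the knockdown set (sh-Jmjd1a over sh-Empty) differed from that in the rescue set (LacZ over JMJD1A(WT)). That difference was tested in edgeR's quasi-likelihood fit of all 15 libraries. Of all 12758 genes tested, 17% were called above 0 and 15.7% below 0. These effects also differ in hairpin, further retrovirus and level of JMJD1A expression, which cannot be told apart from loss of JMJD1A. The log2 differences below are the knockdown effect minus the rescue effect, and all 24 are above 0. They were 1.09 for Stat2 and 0.67 for Ddx58. In the ISG15 and ADP-ribosylation genes they were 1.03 for Isg15, 0.89 for Usp18, 0.48 for Trim25, 0.40 for Parp9, 1.20 for Parp14 and 0.51 for Dtx3l. The OAS family gave 2.92 for Oas1a, 5.65 for Oas2 and 1.73 for Oasl2, and the IFIT family 1.23 for Ifit1 and 2.80 for Ifit2. Other effectors gave 2.55 for Mx1, 2.24 for Mx2, 0.50 for Bst2, 0.77 for Rtp4, 1.35 for Xaf1 and 0.99 for Ifi44. The guanylate-binding genes gave 2.29 for Gbp3 and 1.19 for Gbp7, and antigen presentation 1.37 for Tap1, 2.25 for Psmb9 and 0.83 for B2m. The value of Oas2 rests on 6 counts in the 3 sh-Empty libraries and that of Mx1 on 10.

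Of these 24 differences, 16 were called whichever library was left out. The other 8 (Usp18, Parp9, Dtx3l, Ifit1, Mx1, Rtp4, Xaf1 and Ifi44) were each lost without at least 1 library. By adjusted p, Mx1 was the least stable of them, reaching 0.503, while Rtp4 reached 0.23 and Ifi44 0.219. By number of fits it was Rtp4, kept in 4 of 15 that left out 1 library, against 9 for Mx1 and for Ifi44. DESeq2 kept 19 of the 24. With at least 10 counts in every library 18 were kept, as 6 were then not tested.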

How the results depend on the processing

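The number of members called higher on knockdown was 27 and ranged from 22 (adjusted p under 0.01) to 30 (all 15 libraries in one fit) over the settings tried, and from 21 to 28 when 1 library was left out. DESeq2 gave 25. The number called lower was 0, was 1 (Irf1) after thinning to the smallest total, and ranged from 0 to 1 when 1 library was left out. For JMJD1A(WT) against LacZ, 3 members were called higher and 1 lower. DESeq2 gave 1 higher, an adjusted p under 0.01 gave 0 lower, and leaving out 1 library gave 1 to 4 higher and 0 to 2 lower. For JMJD1A(H1122A) against JMJD1A(WT), 3 were higher and 5 lower. An adjusted p under 0.01 gave 1 higher and 2 lower, DESeq2 gave 3 lower, at least 10 counts in every library gave 3 lower because Oas1a and Oas2 were then not tested, and leaving out 1 library gave 1 to 3 higher and 3 to 5 lower. For JMJD1A(H1122A) against LacZ, 2 were higher and 1 lower. DESeq2 gave 1 higher, an adjusted p under 0.01 gave 1 higher and 0 lower, all 15 libraries in one fit gave 0 lower, and leaving out 1 library gave 0 to 2 higher and 0 to 1 lower. The difference of the loss effects was called above 0 for 24 members, for 16 to 24 over the settings and for 18 to 27 when 1 library was left out. Where no reason is given, the cause was not tested. No member that was called changed sign under any setting run.

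Same-numbered replicates did not deviate together (correlations from -0.044 to 0.054), so the numbers were not taken as pairs. With the replicate number as a block, 28 members were called higher on knockdown, the 27 and Rtp4, and the other counts were as without the block.

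Depth limits the low members: 6 of the 39 could not be tested on knockdown. The call of Oas2 against LacZ was lost without JMJD1A(WT) replicate 3, the library with the highest total, but was kept after thinning to the smallest total.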
